A study of Mus musculus with 8 samples.

Results

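TRiC, also called CCT, is the chaperonin of the cytosol, and the 8 genes described here encode its subunits: Tcp1, Cct2, Cct3, Cct4, Cct5, Cct6a, Cct7 and Cct8. They were chosen by name, matched from the gene IDs of the count table to symbols of the GENCODE M21 annotation. They are 8 of the 50686 genes in that table and 8 of the 16066 genes with enough counts to be tested. RNA had been sequenced from hematopoietic stem cells (HSCs), rare marrow cells that renew themselves and give rise to every blood lineage, taken from C57BL/6J mice with no treatment named. By forward scatter, a measure of size, Large HSCs came from the top 10% of the distribution, Small HSCs from the bottom 10% and Medium HSCs from within 10% of the mean. All HSCs were taken without a gate on size. Each of these 4 groups had 2 libraries, numbered 1 and 2, each from 10000 cells sorted in G0/1 phase. How old and how many the mice were, and whether marrow was pooled, is not stated. The labels do not say that libraries came from separate animals, so the p-values reflect variation among these samples that could be technical.

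TRiC is a barrel of stacked rings in which each ring holds one copy of every subunit, so a complete complex needs all of them in equal number. It closes over newly made proteins as it hydrolyses ATP. Actin and tubulin depend on it to fold, as do cell cycle regulators such as Cdc20 and many proteins with WD40 repeats. Prefoldin hands it unfolded chains, and phosducin-like proteins act with it as co-chaperones. In work on yeast and bovine TRiC, Tcp1 (CCT1), Cct2, Cct4 and Cct5 lie on the side of the ring that binds ATP tightly, and Cct3, Cct6a, Cct7 and Cct8 on the side that binds it weakly.

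All 8 subunit transcripts were more abundant in Large HSCs than in Small, Medium or All HSCs of the same replicate number by CPM, and this held for both numbers. On the authors' TPM scale Cct2 and Cct4 were exceptions within number 2, as given further on. The 8 genes together had 5529 ± 1185 CPM in Large HSCs and 4184 ± 796 CPM in Small HSCs (SD, n = 2 each), where CPM are counts per 1000000 scaled between libraries by edgeR's TMM method. The mean summed levels of Small, Medium and All HSCs differed by less than the SD of any of these groups. None of the 8 genes passed edgeR's quasi-likelihood test in any of the 6 comparisons between groups. All values are relative, set against the total of each library. In such bulk samples, fewer cells of a type and less RNA per cell cannot be told apart.

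The labelled cell type was set beside 8 HSC markers, of which none was at 0 in all libraries. The same held for the markers of every other list below, so this does not separate HSCs from other cells. Kit had 513 to 1196 CPM and Slamf1, which encodes CD150, had 7.58 to 22.6. Summed HSC markers were at 817 and 1809 CPM in Large HSCs and 1566 and 3134 in Small HSCs. Of the 8, 6 were lower in Large within both numbers, as were 30.9% of all genes. Cell division markers had 1193 and 791 summed CPM in Large and 797 and 302 in Small. Of these, 5 of 5 were higher in Large within both numbers, as were 32.9% of all genes. Against Medium 4 of 5 were higher (32.9% of genes) and against All 5 of 5 (31.2%). Granulocyte and monocyte markers had 43202 and 21865 summed CPM in Large and 42740 and 11976 in Small. Within both numbers, 4 of 9 were higher in Large than in Small (32.9% of all genes). Against Medium 9 of 9 were higher (32.9%) and against All 4 of 9 (31.2%). The lowest and highest sums of all libraries were both in the All group, at 3346 in All 2 and 54263 in All 1. Erythroid markers had 2002 and 383 summed CPM in Large and 1704 and 208 in Small. Within both numbers, 2 of 5 were higher in Large and 1 lower (32.9% and 30.9% of all genes). The 6 B cell markers summed to 34.7 to 170 CPM over the libraries and the 4 megakaryocyte markers to 121 to 435. The 4 macrophage markers summed to 9.12 to 27.6 and the 3 T cell markers to 0.857 to 5.19. In each of these lists 0 were higher in Large than in Small within both numbers, against 32.9% of all genes. The part of these lists in the subunits' values was not tested.

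The 8 genes lie on 8 different chromosomes. On GRCm38, Tcp1 lies on chromosome 17 (12915701 to 12925067), Cct2 on chromosome 10 (117051001 to 117063814), Cct3 on chromosome 3 (88297116 to 88321767) and Cct4 on chromosome 11 (22990519 to 23003780). Cct5 lies on chromosome 15 (31590800 to 31601804), Cct6a on chromosome 5 (129786998 to 129846371), Cct7 on chromosome 6 (85451514 to 85468475) and Cct8 on chromosome 16 (87483326 to 87495873). RefSeq promoter windows of GRCm38.p6, from 250 bases before to 50 after a start site, were matched for 7 of the 8, all but Cct4, with 9 windows in all. The GC box GGGCGG, read on both strands, was in 8 of these 9 windows and in at least one window of each of the 7 genes, against 35.7% of all 32851 windows of the same length. The CCAAT box CCAAT, also on both strands, was in windows of Tcp1, Cct3, Cct6a and Cct7 (37.4% of all windows). The ETS core CCGGAAG was in Tcp1, Cct2 and Cct8 (8.86%) and the palindromic NRF1 site in Cct5 (0.971%). The E-box CACGTG (7.15% of all windows) and the cAMP response element TGACGTCA (1.79%) were in 0 of 9. A match is a description of letters and not a site of binding. The stretches below are upstream bases that overlap no annotated exon. They are shown because these promoters share the GC box, which is in capitals, while other motifs differ. They run 5′ to 3′ along each gene, on the plus strand for Cct3 (chr3:88297000-88297115) and Cct7 (chr6:85451385-85451504) and on the minus strand for Cct2 (chr10:117063853-117063972) and Cct8 (chr16:87495874-87495993).
Cct2: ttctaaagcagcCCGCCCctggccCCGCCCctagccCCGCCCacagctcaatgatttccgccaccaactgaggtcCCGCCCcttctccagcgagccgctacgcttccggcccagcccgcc
Cct3: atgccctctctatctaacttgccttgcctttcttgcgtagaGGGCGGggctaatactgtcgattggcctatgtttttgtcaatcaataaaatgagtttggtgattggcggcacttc
Cct7: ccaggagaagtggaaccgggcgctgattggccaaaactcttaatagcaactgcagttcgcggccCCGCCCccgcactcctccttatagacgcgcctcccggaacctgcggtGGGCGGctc
Cct8: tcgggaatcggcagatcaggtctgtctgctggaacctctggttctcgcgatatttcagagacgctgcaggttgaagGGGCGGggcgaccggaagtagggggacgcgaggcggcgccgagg
The stretch of Cct2 holds the box 4 times, that of Cct7 holds it at -56 and -9 from the start site, and those of Cct3 and Cct8 hold it once, at -94 and -48. Cct3 and Cct7 also carry the CCAAT letters on the reverse strand, at -74 and -33 in Cct3 and at -187, -125 and -95 in Cct7, the 2 farther ones lying beyond the stretch shown. Pairs of heat shock half-sites, spelled GAANNTTC and TTCNNGAA and each its own reverse complement, were found in Cct2 for the first (7.86% of all windows) and in Cct5 and Cct6a for the second (8.52%).

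The subunits of the side that binds ATP tightly had 3290 to 14111 counts per gene and library. Tcp1, first known as a product of the mouse t-complex, had 537 and 331 CPM in Small HSCs, 518 and 376 in Medium HSCs, 734 and 501 in Large HSCs and 515 and 325 in All HSCs, libraries 1 and 2 in that order. Its Large libraries were highest within each number, but Large 2 lay below Small 1, Medium 1 and All 1, so the groups overlapped. Its fitted log2 difference of Large against Small was 0.51 (SE 0.36). Cct2 had 213 and 250 CPM in Small HSCs, 243 and 246 in Medium HSCs, 318 and 275 in Large HSCs and 240 and 248 in All HSCs. It was the one subunit not higher in library 1 than in library 2 of every group, and both Large libraries lay above all 6 others. The difference of Large against Small was 0.35 on the log2 scale (SE 0.18), with the smallest unadjusted edgeR p of the 8 genes (0.0913).

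Cct4, a subunit that touches folding actin, had 446 and 391 CPM in Small HSCs, 456 and 367 in Medium HSCs, 567 and 432 in Large HSCs and 454 and 298 in All HSCs. Large 2 lay below the number 1 libraries of the 3 other groups, and the log2 difference of Large against Small was 0.25 (SE 0.27), with a range of 0.046 to 0.44 when single libraries were left out. Cct5, variants of which cause a sensory neuropathy in humans, had 772 and 604 CPM in Small HSCs, 751 and 671 in Medium HSCs, 1009 and 792 in Large HSCs and 788 and 601 in All HSCs. Both Large libraries lay above all 6 others, Large 2 by a narrow margin over All 1, and the log2 difference of Large against Small was 0.39 (SE 0.23).

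The subunits of the side that binds ATP weakly also had Large HSCs highest within each number. Cct8, a raised level of which increases TRiC assembly in Caenorhabditis elegans, had 763 and 535 CPM in Small HSCs, 777 and 544 in Medium HSCs, 1125 and 737 in Large HSCs and 824 and 523 in All HSCs. The value of Large 1 was the highest of any subunit in any library, Large 2 lay below the 3 other libraries numbered 1, and the log2 difference of Large against Small was 0.52 (SE 0.35), with a range of 0.19 to 0.80 when single libraries were left out. The subunits' order by this difference changed with the library left out and was not resolved. Cct7 had 784 and 520 CPM in Small HSCs, 682 and 573 in Medium HSCs, 960 and 700 in Large HSCs and 702 and 550 in All HSCs, with a log2 difference of Large against Small of 0.35 (SE 0.28). Its Large 2 value lay below Small 1 and All 1. Cct6a, the form made in most tissues, had 646 and 522 CPM in Small HSCs, 721 and 523 in Medium HSCs, 927 and 667 in Large HSCs and 708 and 475 in All HSCs (log2 0.45, SE 0.30 for Large against Small). Both its Large libraries lay above both Small libraries, but not above Medium 1 or All 1. Cct3 had 587 and 468 CPM in Small HSCs, 598 and 504 in Medium HSCs, 728 and 587 in Large HSCs and 573 and 438 in All HSCs (log2 0.32, SE 0.23), and Large 2 and Small 1 were equal within 0.1 CPM. The testis paralogue Cct6b had at most 47 counts in a library and Cct8l1 had 0 in all 8. RefSeq names 16 pseudogenes after the subunits, and the 9 with a row in the count table held at most 13 counts together in a library.

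**Figure D1:**
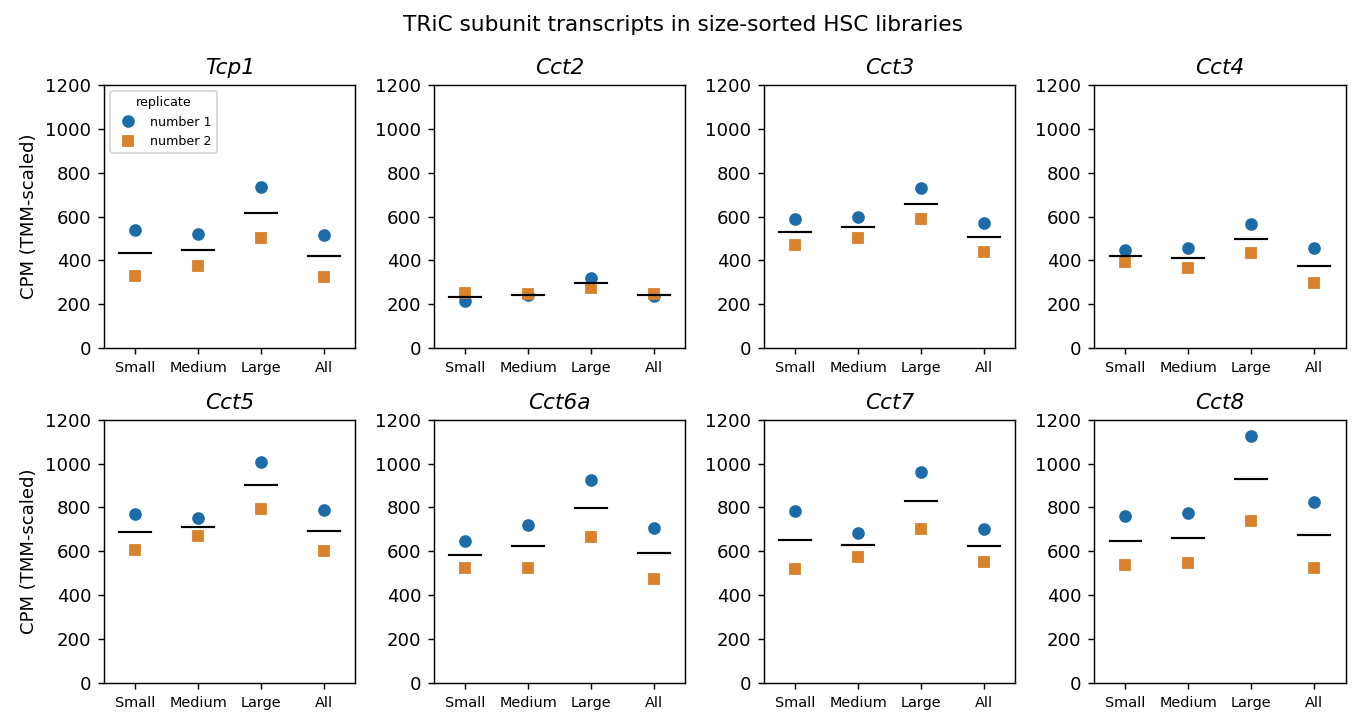
TMM-scaled CPM of each TRiC subunit gene (vertical axis, from 0) in Small, Medium, Large and All HSCs, with circles for libraries numbered 1, squares for libraries numbered 2 and a bar at the mean of the 2. In every panel the Large circle is the highest circle and the Large square the highest square, and for 7 of the 8 genes the circle lies above the square in every group.

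Large against Small HSCs gave a median log2 difference over the 8 subunits of 0.37, with 0.42 within number 1 and 0.37 within number 2, while the median of all genes tested was 0.00. All 8 subunits were higher in Large for number 1 and for number 2 alike, as were 32.9% of all genes. Both Large libraries lay above both Small libraries for 4 of 8 (Cct2, Cct3, Cct5 and Cct6a), against 17.7% of all genes. For Cct3 this was close to a tie, with 586.7 CPM in Large 2 and 586.6 in Small 1. In edgeR's test 0 of 8 passed, as did 0 of all 16066 genes (0%), with an adjusted p of 0.975 for every subunit. At an unadjusted p under 0.05 edgeR had 506 genes and 0 subunits. This fit leaves out the replicate number. With the number as a block, edgeR gave 7 of 8 subunits an unadjusted p under 0.05, against 17.4% of genes. The smallest adjusted p of a subunit was then 0.0737, so 0 passed. DESeq2 called 12 genes, and limma-trend, run on log2(TPM + 1) as deposited, called 1, with 0 subunits in both. A fitted log2 difference as large as the subunits' median or larger was seen in 23.9% of genes. The median moved to 0.59 without Small 1, to 0.21 without Small 2, to 0.19 without Large 1 and to 0.55 without Large 2.

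Large against Medium HSCs gave nearly the same size of difference. The median over the subunits was 0.35 (0.41 within number 1 and 0.26 within number 2), and single genes ran from 0.25 for Cct3 to 0.50 for Cct8. All 8 were higher in Large for each number, as were 32.9% of genes (0 were lower, as were 33.0% of genes), and 3 of 8 (Cct2, Cct5 and Cct7) had both Large libraries above both Medium libraries, against 18.3%. By edgeR 0 of 8 subunits and 0 genes (0%) passed, with an adjusted p of 0.989 for each subunit and 301 genes at an unadjusted p under 0.05, 0 of them subunits. DESeq2 called 2 genes and limma-trend 1, with 0 subunits. The median was 0.22 without Medium 2, 0.16 without Large 1 and 0.54 without Large 2.

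Large against All HSCs gave a median of 0.41 (0.40 and 0.46), from 0.28 for Cct2 to 0.56 for Tcp1. All 8 were again higher in Large for each number, as were 31.2% of genes (0 were lower, as were 32.6%), and 3 of 8 (Cct2, Cct3 and Cct5) had both Large libraries above both All libraries, against 15.8%. The 3 comparisons share the 2 Large libraries. By edgeR 0 of 8 subunits and 0 genes (0%) passed, with an adjusted p of 0.885 for each subunit and 504 genes at an unadjusted p under 0.05, 0 of them subunits. DESeq2 called 8 genes and limma-trend 1, with 0 subunits. The median was 0.18 without Large 1, 0.69 without All 1 and 0.20 without All 2. Over the 4 groups, Large was highest for each number in 8 of 8 subunits, and in 15.2% of genes tested.

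Fitted differences that did not involve Large HSCs lay near 0, but their sign rested on single libraries. For Medium against Small the fitted log2 differences ran from -0.05 to 0.09, with a median of 0.05. For Small against All they ran from -0.07 to 0.15 (median 0.02), and for Medium against All from -0.03 to 0.13 (median 0.05). The median of Medium against Small was 0.24 without Small 1, -0.12 without Small 2, -0.17 without Medium 1 and 0.17 without Medium 2. That of Small against All was -0.19 without Small 1, 0.20 without Small 2, 0.33 without All 1 and -0.16 without All 2. That of Medium against All was -0.09 without Medium 1, 0.27 without Medium 2, 0.38 without All 1 and -0.16 without All 2. Standard errors were 0.18 to 0.36. Subunits higher within both numbers were 3 of 8 in Medium against Small (30.1% of all genes), 2 of 8 in Small against All (26.7%) and 4 of 8 in Medium against All (24.6%). Subunits lower within both numbers were 0 of 8 in each, where the shares of all genes were 29.3%, 31.3% and 24.9% in the same order. No subunit passed edgeR, DESeq2 or limma-trend in any of these 3 comparisons. EdgeR called 0 genes (0%) in each, with 695, 637 and 262 genes at an unadjusted p under 0.05, DESeq2 called 47, 19 and 6, and limma-trend called 0.

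**Figure D2:**
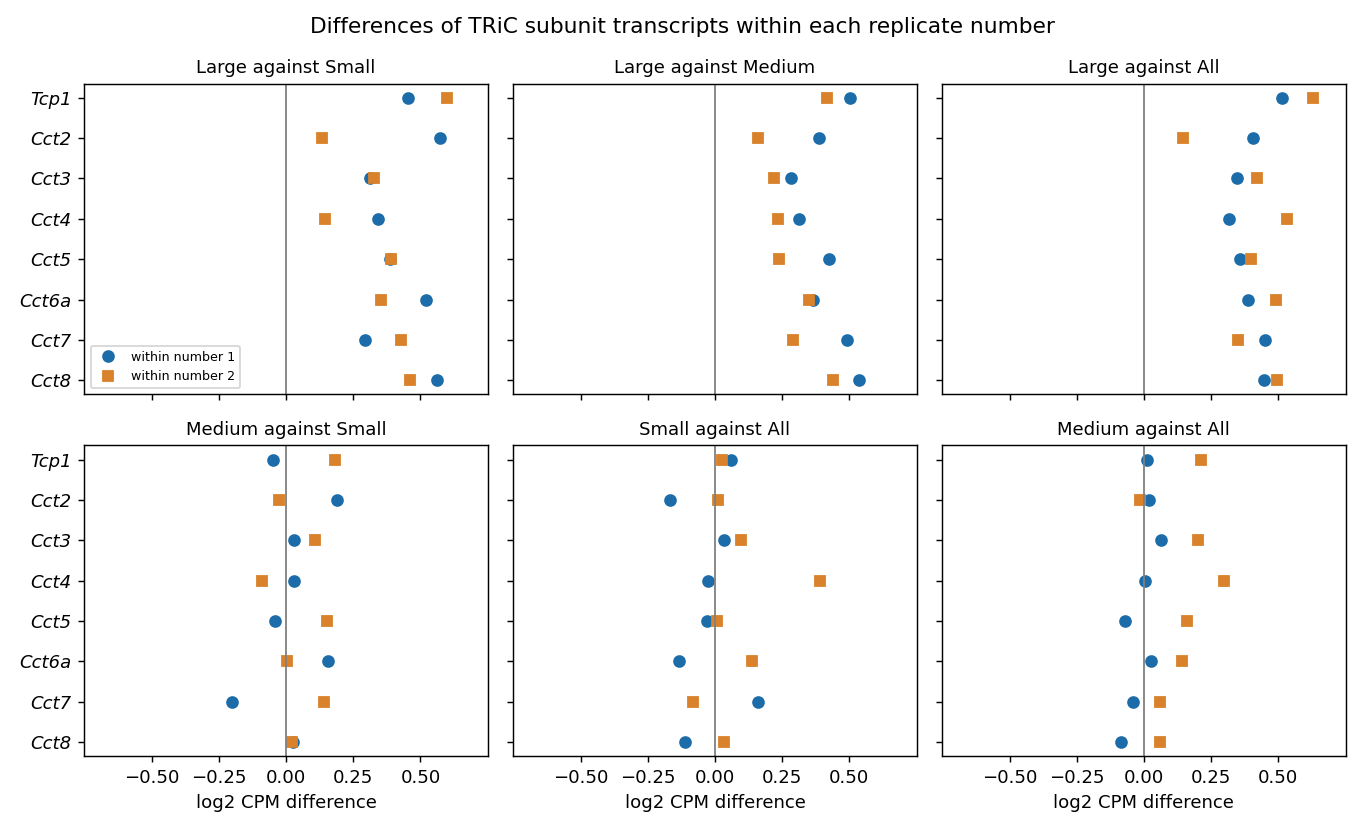
Difference in log2 CPM of each TRiC subunit gene (rows) between 2 groups within replicate number 1 (circles) and within number 2 (squares), for the 6 comparisons, with a line at 0. In the 3 upper panels, which compare Large with Small, Medium and All HSCs, every point lies right of 0, between 0.14 and 0.63, and in the 3 lower panels the points lie on both sides of 0.

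The order of the groups by summed CPM had Large highest within both numbers, while the order of the other 3 differed between them. Within number 1 the summed level was 6367 CPM in Large and 4804 in All, 4747 in Small and 4746 in Medium. Within number 2 it was 4691 CPM in Large and 3804 in Medium, 3621 in Small and 3457 in All. The Large mean of 5529 CPM lay above those of Medium (4275 ± 666), Small (4184 ± 796) and All (4130 ± 952), and these last 3 differed by less than the SD of any of them. The SD of the Large group itself was 1185 CPM, since Large 1 and Large 2 differed as the other pairs did.

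The subunits were also ordered by replicate number. Library 1 was higher than library 2 in all 4 groups for 7 of 8 subunits, against 23.1% of all genes, and Cct2 was the exception. The median log2 difference of number 1 minus number 2 over the subunits was 0.34 in Small, 0.28 in Medium, 0.42 in Large and 0.48 in All, about as large as the difference between Large and the other groups. Tcp1 (0.46 to 0.70) and Cct8 (0.51 to 0.66) had the widest gaps. Several marker lists did the same. All 9 granulocyte and monocyte markers and all 5 cell division markers were higher in library 1 of every group, and 0 of 8 HSC markers were. The part of these in the subunits' values was not tested.

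On the deposited TPM scale (transcripts per 1000000, which divides by length and applies no TMM scaling) the direction was less uniform. All 8 subunits were higher in Large than in Small within number 1, but 6 of 8 within number 2, where Cct2 was at 247 TPM in Large and 265 in Small and Cct4 at 332 and 345. Against All, Cct2 was lower in Large within number 2 (247 and 261 TPM), and 7 of 8 were higher within both numbers. Against Medium all 8 were higher in Large within both. The shares of all genes higher within both numbers given elsewhere are for CPM, and none is given for TPM. The median log2(TPM + 1) difference of the subunits between Large and Small was 0.22, on a scale where the median of all genes tested was -0.11, against 0.00 for the fitted differences.

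TPM also allows the levels of the 8 genes to be compared with each other. Averaged over the 8 libraries, Cct8 had 614 TPM, Cct5 598, Cct7 593, Cct6a 554, Cct3 453, Tcp1 369, Cct4 329 and Cct2 239. Each of them lay above at least 95.3% of the genes tested, at ranks from 219 for Cct8 to 758 for Cct2. With equal levels each gene would hold 12.5% of the summed TPM. Cct8 held a median of 16.3% (14.7 to 17.9%), Cct5 15.9% (15.0 to 17.4%) and Cct7 15.6% (15.0 to 17.3%). Cct2 held 6.30% (4.78 to 8.18%), Cct4 8.76% (7.90 to 10.1%) and Tcp1 9.95% (8.29 to 11.2%). Cct8, Cct5, Cct7 and Cct6a (median 14.9%, 13.8 to 15.6%) exchanged ranks between libraries and are not distinguished by these data. Cct2 was lowest in 7 of 8 libraries, and Cct4 in All 2. Of the genes of the tight ATP side, Cct5 was thus among the highest, and Tcp1, Cct4 and Cct2 were the 3 lowest on average.

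The ratio of the highest to the lowest subunit in a library was 2.60 at the median (2.07 to 3.62). The same ratio was 5.07 (4.44 to 5.65) for the 14 genes of the 20S proteasome core and 3.68 (3.33 to 4.94) for the 6 genes of the replicative helicase, 2 other complexes with fixed subunit numbers. It was 4.67 (3.31 to 9.84) for the 6 prefoldin genes. Lists of different length are not directly comparable in such a ratio. The coefficient of variation over the subunits was 26.7 to 34.4% for TRiC, 32.9 to 39.7% for the proteasome core, 43.6 to 59.7% for the helicase and 42.3 to 70.5% for prefoldin. The order of the TRiC genes rests on the lengths behind TPM. With counts divided by the total annotated exon length of each gene, the median ratio was 3.22 and the order changed. Cct5 (713), Cct8 (618) and Cct6a (471) were then highest, and Cct4 (267), Cct7 (265), Cct2 (264) and, below them, Tcp1 and Cct3 (232) followed, in counts per exon length scaled to a total of 1000000. Cct7, among the 3 highest by mean TPM, was thus level with Cct2 and Cct4 on that scale.

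**Figure D3:**
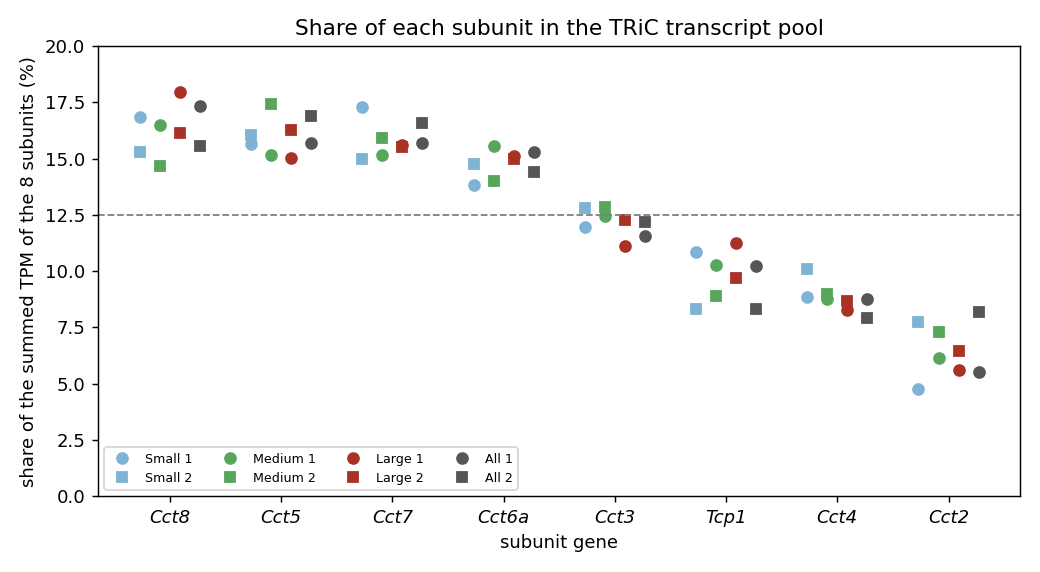
Share of the summed TPM of the 8 TRiC subunits held by each gene (vertical axis, percent) in the 8 libraries, with circles for libraries numbered 1, squares for libraries numbered 2, a colour for each group and a dashed line at the equal share of 12.5%. Cct8, Cct5, Cct7 and Cct6a lie above the line in every library, and Tcp1, Cct4 and Cct2 lie below it.

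Of the 6 prefoldin genes, 4 were higher in Large than in Small within both numbers and 0 lower (32.9% and 30.9% of all genes), with a median fitted log2 difference of 0.25 and 0 called by edgeR. Against Medium and against All, 3 were higher and 1 lower in each. The shares of all genes were 32.9% and 33.0% against Medium, and 31.2% and 32.6% against All. Vbp1, the most abundant by CPM, had 209 and 173 CPM in Large HSCs and 173 and 183 in Small HSCs, so its direction differed between the numbers. Pfdn6 had 85.4 and 58.7 CPM in Large and 64.2 and 38.1 in Small (log2 0.49, SE 0.36). The 3 phosducin-like co-chaperones had a median of 0.07, and Txndc9, which encodes phosducin-like protein 3, had 126 and 113 CPM in Large and 115 and 113 in Small. Pdcl3 had 72.4 and 69.6 CPM in Large and 68.1 and 60.5 in Small.

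The mitochondrial chaperonin genes had larger fitted differences with larger errors. Hspd1, its ring subunit, had 790 and 410 CPM in Large HSCs and 488 and 281 in Small HSCs (log2 0.64, SE 0.49), and Hspe1, its lid, had 271 and 141 CPM in Large and 175 and 70.3 in Small (log2 0.74, SE 0.60). Both were higher in Large within each number but Large 2 lay below Small 1 in both, and neither passed edgeR (adjusted p = 0.975 for both). The list they belong to also holds Cct6b, the untested Cct8l1 and the chaperonin-like Bardet-Biedl genes Mkks, Bbs10 and Bbs12. Of its 6 tested genes 3 were higher and 0 lower in Large than in Small within both numbers (32.9% and 30.9% of all genes). Its median fitted difference was 0.09, below the medians within the numbers (0.51 and 0.57). These medians include genes with few counts, Bbs10 with 0 to 69 and Cct6b with 4 to 47 per library.

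Among clients of TRiC, 14 tubulin genes were tested, of which 7 were higher and 6 lower in Large than in Small within both numbers (32.9% and 30.9% of all genes). Against Medium 10 tubulin genes were higher and 3 lower (32.9% and 33.0% of genes), and against All 8 were higher and 2 lower (31.2% and 32.6%). Tuba1b, the most abundant, had 3147 and 2849 CPM in Large and 1846 and 1219 in Small (log2 0.97, SE 0.33), and Tubb5 had 603 and 520 CPM in Large and 360 and 204 in Small (log2 0.99, SE 0.37). The Large libraries of these 2 genes all lay above the Small ones, and they were the only 2 of the 14 (17.7% of all genes). In 2 other tubulin genes each Large library lay below each Small one (14.7% of all genes). Neither Tuba1b nor Tubb5 passed edgeR (adjusted p = 0.975). Tuba4a had 1184 and 673 CPM in Large and 938 and 457 in Small. Of the actins, Actb had 3194 and 2762 CPM in Large and 2500 and 2286 in Small, whereas Actg1 was lower, with 1706 and 2063 CPM in Large and 2114 and 2357 in Small. Both actins were higher in Large than in Medium within both numbers, and 1 of them was higher, with 0 lower, against All.

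The 6 tubulin folding cofactors take over tubulin after TRiC releases it. Within both numbers, 3 were higher and 0 lower in Large than in Small (median 0.22, with 32.9% and 30.9% of all genes). Against Medium 3 were higher and 1 lower (32.9% and 33.0% of genes), and the same against All (31.2% and 32.6%). Arl2, the small GTPase of that pathway, had 57.2 and 51.2 CPM in Large and 49.7 and 26.5 in Small. Tbcb had 95.3 and 80.3 CPM in Large and 77.2 and 47.8 in Small, and Tbcd had 93.1 and 103 CPM in Large and 96.2 and 93.0 in Small. Of 13 other clients, 5 were higher and 3 lower in Large than in Small within both numbers (median 0.07), where the shares of all genes were 32.9% and 30.9%. Against Medium 10 of them were higher and 1 lower (median 0.26, with 32.9% and 33.0% of genes), and against All 8 were higher and 4 lower (median 0.20, with 31.2% and 32.6%). Stat3, a cytokine-activated transcription factor, had 133 and 213 CPM in Large and 257 and 416 in Small (log2 -0.96, SE 0.43), with each Large library below each Small one (14.7% of genes). Gnb1, a WD40 protein of the G protein beta family, had 233 and 230 CPM in Large and 238 and 200 in Small. The heat shock factor gene Hsf1 was at 72.3 and 71.6 CPM in Large and 83.6 and 75.8 in Small, and the cytosolic chaperone gene Hspa8 at 5192 and 3875 CPM in Large and 4257 and 3488 in Small. None of the 52 tested genes of these partner and client lists passed edgeR in any of the 6 comparisons.

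**Figure D4:**
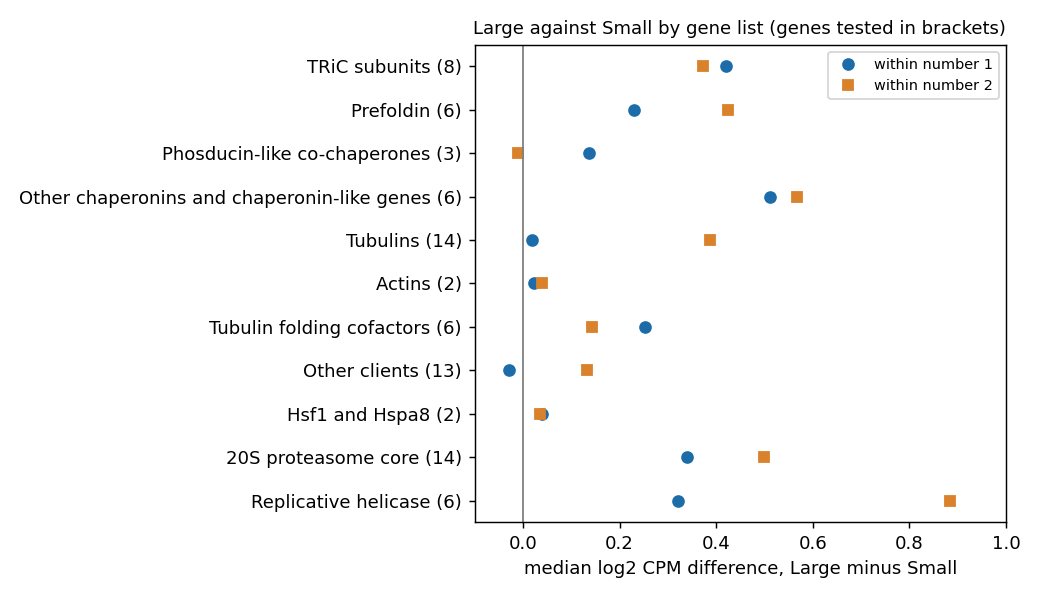
Median difference in log2 CPM of Large minus Small HSCs for the TRiC subunits and each related gene list (rows, with the number of genes tested), within replicate number 1 (circles) and within number 2 (squares), with a line at 0. The TRiC points lie at 0.42 and 0.37, near those of the proteasome core at 0.34 and 0.50, and the helicase has the widest gap between numbers, at 0.32 and 0.88.

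Among the comparison complexes, all 14 genes of the proteasome core were higher in Large than in Small for each number, with a median of 0.42 (32.9% of all genes were higher), and in 9 of them each Large library lay above each Small one (17.7% of genes). Psma6 had 450 and 325 CPM in Large and 312 and 208 in Small, Psma1 497 and 434 in Large and 404 and 329 in Small, and Psma7 498 and 407 in Large and 400 and 288 in Small. The helicase genes were higher in Large by a median of 0.61, and in 6 of 6 each Large library lay above each Small one, as in 17.7% of genes. Mcm6 had 1152 and 1161 CPM in Large and 944 and 643 in Small, Mcm3 651 and 651 in Large and 509 and 367 in Small, and Mcm7 698 and 665 in Large and 479 and 291 in Small. In these 3 helicase genes Large 1 and Large 2 were nearly equal, while for TRiC Large 1 exceeded Large 2 by a median of 0.42 on the log2 scale. The difference between TRiC and these complexes was not tested.

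By profile over the 8 libraries, the genes most like the subunits' mean were Drg1, a GTP-binding protein gene, at a root mean square difference of 0.032 in log2 CPM, Ints10 of the Integrator complex (0.038) and Sucla2 of succinyl-CoA ligase (0.040). Prdx3, a mitochondrial peroxiredoxin gene, followed at 0.041, the splicing factor gene Prpf31 at 0.054 and Atp5f1 of ATP synthase at 0.056. Drg1 had 331 and 258 CPM in Small HSCs, 319 and 266 in Medium HSCs, 425 and 329 in Large HSCs and 330 and 252 in All HSCs. Of the subunits, Cct5 lay closest to their mean (0.044) and Cct2 farthest (0.22). The median gene lay at 0.40, and 1656 of 10205 genes compared lay closer than Cct2. That is a loose limit, since the next farthest subunit, Tcp1, lay at 0.13. Drg1, Ints10, Sucla2 and Prdx3 lay closer to the mean than any subunit, so the profile was not particular to TRiC.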

How the data were processed

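RNA from size-sorted mouse HSCs was measured in 8 libraries of 4 groups. Named in the submitters' processing notes are mm10, SAMtools 1.3, STAR 2.5.3a and RSEM 1.3.0. The authors deposited a table of whole-number counts per Ensembl gene, with a different total in each library, which was treated here as rounded estimated counts because RSEM is among the tools named, with no role given. They also deposited log2(TPM + 1) values whose TPM sum to 1000000 in each library after rounding. Totals ran from 13698362 to 16838448 counts. Of 50686 gene IDs, 50462 matched GENCODE M21 (GRCm38, the assembly of mm10). The authors' annotation release is not stated.

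EdgeR 4.0.16 in R 4.3.3 was run on all 8 libraries with group as the sole term, TMM scaling and robust fitting (4 residual degrees of freedom). The filterByExpr function (minimum count 10) left 16066 genes to test. Two-sided p-values were Benjamini-Hochberg adjusted over all of them, with a threshold of 0.05. The pipeline was run on simulated counts with 200 changed genes. For Large against Small it recovered 0% of genes changed 2-fold and 41% of those changed 4-fold, with 2 false calls. All fitted differences of the subunits were below 2-fold, so a subunit that did not pass is not shown to be unchanged. With 2 samples a side, the smallest two-sided exact p is 0.333. Differences within a replicate number are of log2 CPM with a prior count of 2 and carry no test. Alternatives were DESeq2 1.42.0, limma 3.58.1 on the deposited values, DESeq2's size factors in edgeR, no filter, the replicate number as a block, and each library left out.

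Whether counting used strand is not stated. Exons of Tcp1 overlap those of Mrpl18 and Acat3 on the other strand by 141 and 571 bases, those of Cct6a Psph by 452, those of Cct7 Pradc1 by 214 and those of Cct8 Usp16 by 192, so a part of these genes' counts is uncertain. All subunits are named. Of each other list, the text names the 2 genes with the highest mean CPM and the one with the largest Large against Small difference among those with at least 5 CPM, and the 6 genes closest in profile. Members and lists were chosen with earlier results of these data known. Motif letters were chosen after the data were seen. Samples treated with PD, rapamycin or vehicle were not analysed here.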

Additional observations from a re-analysis of the deposited data

How the results depend on the processing

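Of the 312 recomputed log2 differences of single subunits in the 3 comparisons with Large HSCs, 0 changed direction and 0 passed the threshold, and 0 subunits were called in any comparison under any alternative. Without a filter on low counts edgeR called 55 genes in Large against Small, 58 in Large against Medium, 73 in Medium against Small, 69 in Small against All, 48 in Medium against All and 121 in Large against All, against 0 in each with the filter. In the same order DESeq2 called 12, 2, 47, 19, 6 and 8 genes, and limma-trend on log2(TPM + 1) called 1, 1, 0, 0, 0 and 1. The causes were not tested. By limma-trend the median over the subunits was 0.22 in Large against Small, 0.24 in Large against Medium, -0.0082 in Medium against Small and 0.29 in Large against All, and without the filter it was 0.062 in Small against All. Leaving out each library in turn, the median ran from 0.19 to 0.59 in Large against Small, 0.16 to 0.54 in Large against Medium, -0.17 to 0.24 in Medium against Small, -0.19 to 0.33 in Small against All, -0.16 to 0.38 in Medium against All and 0.18 to 0.69 in Large against All. In the 3 comparisons without Large, 0 to 6 of 8 subunits changed sign under an alternative, and their differences are given as ranges for that reason. A fit that leaves a group with 1 library assumes that it varies like the other groups.

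The replicate numbers are not stated to mark a shared animal or day. Deviations from the group means of libraries with the same number correlated at 0.358 to 0.439 over genes between the groups. With the replicate number as a block edgeR called 0 genes in all 6 comparisons, and the median over the subunits was 0.37 in Large against Small, 0.34 in Large against Medium and 0.41 in Large against All. The smallest adjusted p of a subunit was then 0.0737 in Large against Small, 0.144 in Large against Medium and 0.0834 in Large against All by edgeR, and 7, 6 and 7 of 8 subunits had an unadjusted p under 0.05, against 17.4%, 14.8% and 19.8% of all genes. As alternatives chosen after seeing the data, subunits higher in Large within both numbers were counted on other scales. With library totals alone they were 8 in all 3 comparisons. With the deposited TPM they were 6, 8 and 7 in Large against Small, Medium and All. No share of all genes is given for these scales. Standard errors of the subunits' differences were 0.18 to 0.36 without the block and 0.10 to 0.13 with it, with 2 libraries a group in both.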
